A study of Mus musculus with 2 samples.

Results

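Footprints that lay outside every peak were described in 2 DNase-seq libraries of mouse embryonic liver. A footprint is a short run of bases that DNase I cut less often than the bases around it, and a peak is a longer stretch that was cut often. Footprints were chosen by the deposited footprint and peak positions: one was taken as outside when it shared no base with any peak of its own library, in the longer of the 2 peak lists deposited for that library. Replicate 1 held 16742 such footprints of 151079 (11.1%), and replicate 2 held 42929 of 230992 (18.6%). Together these were 59671 of 382071 footprints. The mean of the 2 replicate shares was 14.8% ± 5.3 (SD, n = 2). The rule used the footprint and peak lists themselves, so the values below are descriptions without a test, and the footprints inside peaks of the same library (134337 and 188063) are given beside them.

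DNase-seq measures how open chromatin is, because DNase I cuts DNA that is not wrapped in nucleosomes. Both libraries came from liver of embryos aged 13.5 days, of the strain C57BL/6N,129, with the genotype label WT with A85 YAC, where a YAC is a yeast artificial chromosome, here in more than 1 copy. The labels name them biological replicates 1 and 2 of 1 group, give them the same donor label and do not give the sex. There is no second condition, and the sources used here do not say what the YAC carries.

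A protein bound to DNA can shield the bases it covers from DNase I, which leaves a gap in the cuts within an open region. Such gaps are usually looked for within peaks, at promoters and enhancers where transcription factors bind. The enzyme also cuts some base compositions less readily than others, so a run of uncut bases does not by itself name a protein. In the fetal liver most cells are red cell precursors, in which GATA1, TAL1 and KLF1 direct transcription, and hepatoblasts are the other main lineage.

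The sequences that recurred are shown first. In 5435 cases a footprint outside peaks in replicate 1 overlapped one outside peaks in replicate 2. These pairs used 5232 footprints of replicate 1 and 5112 of replicate 2, and the bases in common had a median of 8 bp. The 6 below were among the 10 pairs with the most bases in common. Each is the plus strand of mm10, read 5′ to 3′ from the assembly GRCm38.p6, named by the gene with the nearest protein-coding transcript start. Capitals mark the bases inside the footprint of both replicates, and the lower-case bases are the 15 on each side.
Utp6, chr11:79962512-79962584: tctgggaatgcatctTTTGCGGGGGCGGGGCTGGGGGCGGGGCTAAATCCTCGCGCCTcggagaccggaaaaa
Rab11fip5, chr6:85375018-85375089: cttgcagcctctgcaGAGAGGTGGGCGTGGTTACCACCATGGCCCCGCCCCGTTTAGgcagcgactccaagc
Tmpo, chr10:91181476-91181546: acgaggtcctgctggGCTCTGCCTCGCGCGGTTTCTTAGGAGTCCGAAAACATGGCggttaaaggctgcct
Gtf2ird2, chr5:134184578-134184646: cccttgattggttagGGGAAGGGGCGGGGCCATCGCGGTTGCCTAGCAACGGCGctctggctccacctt
Hnrnpul1, chr7:25754781-25754849: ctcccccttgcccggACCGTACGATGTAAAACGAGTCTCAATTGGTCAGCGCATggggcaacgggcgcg
Gm8797, chr3:5860282-5860351: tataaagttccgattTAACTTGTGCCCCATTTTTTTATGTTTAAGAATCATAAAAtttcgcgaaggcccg
The Utp6 and Rab11fip5 sequences lay 137 and 399 bp from the start, and the Gtf2ird2 sequence 566 bp. These 3 held a GC box, the binding sequence of SP and KLF factors. The Tmpo and Hnrnpul1 sequences lay 170 and 39 bp from a start and matched none of the 20 motifs searched. The Gm8797 sequence was intergenic, at 109491 bp from the nearest start. At Rab11fip5, Gtf2ird2 and Hnrnpul1 the footprints of both replicates had the same ends.

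The consensus of CTCF, the protein that marks many chromatin boundaries, was searched in windows of 41 bp centred on each footprint. It was seldom found in windows of either replicate outside peaks. It was there for 3 of the 5435 pairs, and all 3 are shown for that reason. In each the capitals cover only part of the consensus.
Hmg20b, chr10:81350907-81350951: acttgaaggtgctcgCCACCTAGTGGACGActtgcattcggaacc
Dgcr6, chr16:18036869-18036907: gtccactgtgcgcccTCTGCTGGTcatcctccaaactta
Fkbp2, chr19:6979609-6979645: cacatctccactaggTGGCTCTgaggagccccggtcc
They lay 186 to 221 bp from the nearest peak of either replicate. The Hmg20b and Fkbp2 pairs were within 1 kb of the start, and the Dgcr6 pair was intergenic.

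Runs of A or T were found in such windows for 106 of the 5435 pairs (1.95%). They are shown by 4 examples, since their share outside peaks was higher than inside peaks in both replicates.
Hes7, chr11:69110807-69110863: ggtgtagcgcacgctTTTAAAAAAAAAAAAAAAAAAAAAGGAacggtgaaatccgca
Cox6c, chr15:35938267-35938322: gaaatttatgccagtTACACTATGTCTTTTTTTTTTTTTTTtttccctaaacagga
Phf12, chr11:77982365-77982413: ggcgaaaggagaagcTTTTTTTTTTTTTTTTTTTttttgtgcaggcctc
Bicra, chr7:16048155-16048200: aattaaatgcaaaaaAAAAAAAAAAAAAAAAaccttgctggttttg
In these the capitals fall mostly on the run itself. The Cox6c, Phf12 and Bicra runs lay 35, 356 and 248 bp from a start, and the Hes7 run 9556 bp.

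Pairs at genes of red cell development are shown next. The widest pair is given for 3 transcription factor genes (Zfpm1, Lmo2 and Zbtb7a), for the band 3 anion exchanger Slc4a1, and for Alad, an enzyme of heme synthesis.
Zfpm1, chr8:122281739-122281778: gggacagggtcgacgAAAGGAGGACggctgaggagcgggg
Lmo2, chr2:103957664-103957701: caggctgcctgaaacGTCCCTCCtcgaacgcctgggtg
Zbtb7a, chr10:81137246-81137289: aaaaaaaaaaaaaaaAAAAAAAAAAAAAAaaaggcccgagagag
Slc4a1, chr11:102365355-102365395: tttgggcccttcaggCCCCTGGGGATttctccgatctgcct
Alad, chr4:62520096-62520144: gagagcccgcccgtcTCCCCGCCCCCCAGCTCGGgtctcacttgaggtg
The Alad pair had 19 bases in common and its window held a GC box. The Zbtb7a pair (14 bases) lay in a run of A.

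Most footprints outside peaks lay just beyond the edge of one. The gap to the nearest peak of the same replicate, counted in bases between them, had a median of 31 bp in replicate 1 and 50 bp in replicate 2. It was below 50 bp for 65.2% and 49.5% of them, and below 200 bp for 97.4% and 91.8%. The largest gap was 641 bp in replicate 1 and 820 bp in replicate 2, so none was isolated from peaks on the scale of a kilobase. Peaks stood on both sides within 500 bp for 30.9% and 32.6%. The rule has its threshold at 1 bp of overlap, and similar numbers of footprints lay just on each side of it. In replicate 1, 387 touched a peak without sharing a base and 394 shared exactly 1 base, and in replicate 2 these numbers were 636 and 638.

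**Figure D1:**
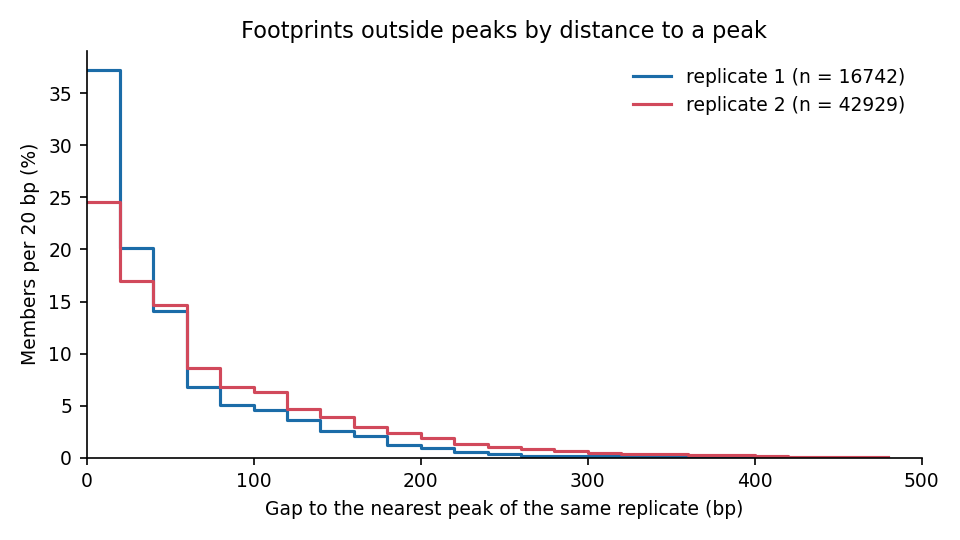
Share of footprints outside peaks (vertical axis, percent per 20 bp) by the gap to the nearest peak of the same replicate (horizontal axis, bp). Each line is 1 replicate, and both fall from the peak edge, with a median gap of 31 bp in replicate 1 and 50 bp in replicate 2.

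The 5 farthest of each replicate lay mostly near starts. The largest gap of replicate 1 (641 bp) was 31 bp from the start of Hnrnph1, which encodes an RNA-binding splicing protein, beside a peak with a value of 16.5. The next were near Zfp217, Kctd7, Calm3 and Rmnd5a, with gaps of 453 to 501 bp. In replicate 2 the largest gap (820 bp) was 140 bp from the start of Stim1, the calcium sensor of the endoplasmic reticulum, and a second footprint there had a gap of 750 bp. The others were near Adcy9, Commd3 and Tmbim6. Of these 10 footprints, 8 lay within 1 kb of a start, and the Zfp217 and Commd3 ones were intergenic.

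A per-base false discovery rate (FDR) of the cut rate was also deposited, and it extended past the peaks. Touching bases listed there were joined into stretches. Of the footprints outside peaks, 99.7% in replicate 1 and 99.4% in replicate 2 lay over such a stretch. For 98.5% and 96.9% the same stretch also held a peak. The remaining footprints were 257 and 1317 in stretches without a peak and 55 and 264 over no stretch. Stretches around footprints outside peaks were long, with a median of 1130 bp and 1170 bp. The median for footprints inside peaks was 534 bp and 590 bp. The lowest FDR over a footprint outside peaks had a median of 3.35e-31 in replicate 1 and 9.11e-18 in replicate 2. The deposited notes name the FDR file among the inputs of the footprint list, so these values are a description and support nothing.

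Within these stretches footprints were thinner on the ground outside peaks than inside. Replicate 1 had 1.43 footprints per kb of stretch outside peaks and 8.94 per kb of peak. Replicate 2 had 3.73 and 11.5. Replicate 2 had 2.56 times as many footprints outside peaks as replicate 1 and 1.40 times as many inside. Peak values are whole multiples of 1 step in each library, and the step of replicate 1 was 2.10 times that of replicate 2. If the values were CPM (tags scaled to the library total), the libraries would hold 79.0 M and 165.7 M tags. Depth and replicate cannot be told apart with 1 library each.

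The peaks next to these footprints were the high ones. The nearest peak had a median value of 7.90 in replicate 1 and 5.24 in replicate 2. Peaks that held a footprint had medians, counted per footprint, of 2.39 and 1.51. Divided by the step, the nearest peak held a median of 624 and 868 counts. Among footprints within 1 kb of a protein-coding start the medians were 9.86 and 6.59 outside peaks, and 5.92 and 3.26 inside. Farther from starts they were 1.79 and 1.17 outside, and 1.34 and 0.948 inside. Peaks were then ranked by value and divided into 5 classes of equal size, and those with an outside footprint within 150 bp were counted. In replicate 1 these were 2.28% of the lowest class, 8.80% of class 4 and 44.0% of the highest class. In replicate 2 they were 9.71%, 23.0% and 71.0%. Most of the rise was thus at the highest class in both replicates.

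**Figure D2:**
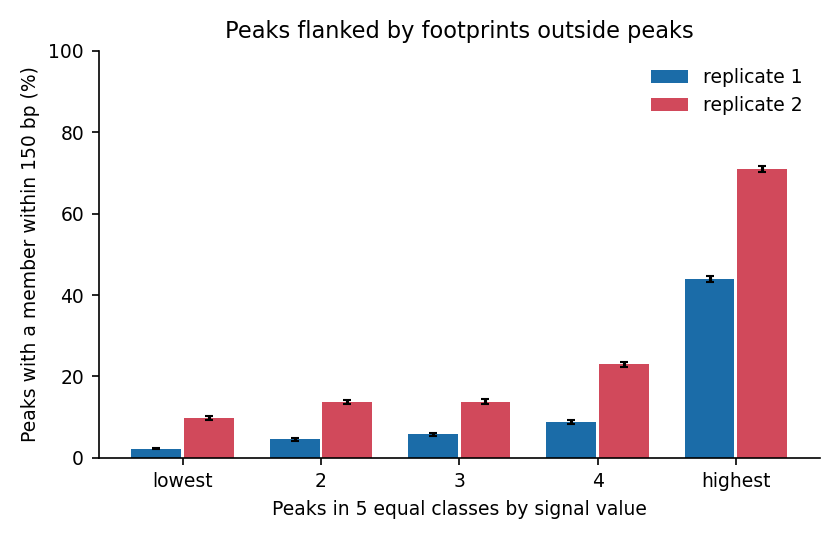
Share of peaks with a footprint outside peaks within 150 bp (vertical axis, percent) by class of peak value (horizontal axis, 5 classes of equal size from lowest to highest), for each replicate. Error bars are 95% Wilson intervals of counting error, and the highest class stands at 44.0% in replicate 1 and 71.0% in replicate 2.

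Footprints outside peaks were mostly promoter footprints. Within 1 kb of a protein-coding transcript start in GENCODE M21 lay 74.8% of them in replicate 1 and 76.2% in replicate 2. The mean of the 2 was 75.5% ± 1.0 (SD, n = 2). The share inside peaks was 47.5% and 50.7%. Introns held 9.94% and 8.73% against 23.5% and 20.3% inside. Intergenic DNA held 13.9% and 12.95% against 26.1% and 24.98%, and exons 1.43% and 2.14% against 2.92% and 3.96%. The median distance to the nearest start was 174 bp and 206 bp outside, and 1376 bp and 926 bp inside. These values are for the longer peak list. With the shorter list, 51.2% and 51.7% of outside footprints lay within 1 kb of a start.

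Around the start they flanked the footprints inside peaks on both sides. Of the inside footprints centred within 1 kb of a start, 52.8% in replicate 1 and 42.4% in replicate 2 lay in the 200 bp upstream. Of the outside footprints 35.9% and 25.1% lay there. The 200 bp downstream of the start held 35.4% and 38.1% of outside footprints and 23.2% and 26.99% of inside ones. From 200 to 400 bp upstream the outside share was 15.2% and 13.6%, and the inside share 6.54% and 6.77%. Downstream positions made up 42.6% of outside footprints in replicate 1 and 54.7% in replicate 2. The corresponding inside shares were 33.8% and 43.4%.

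**Figure D3:**
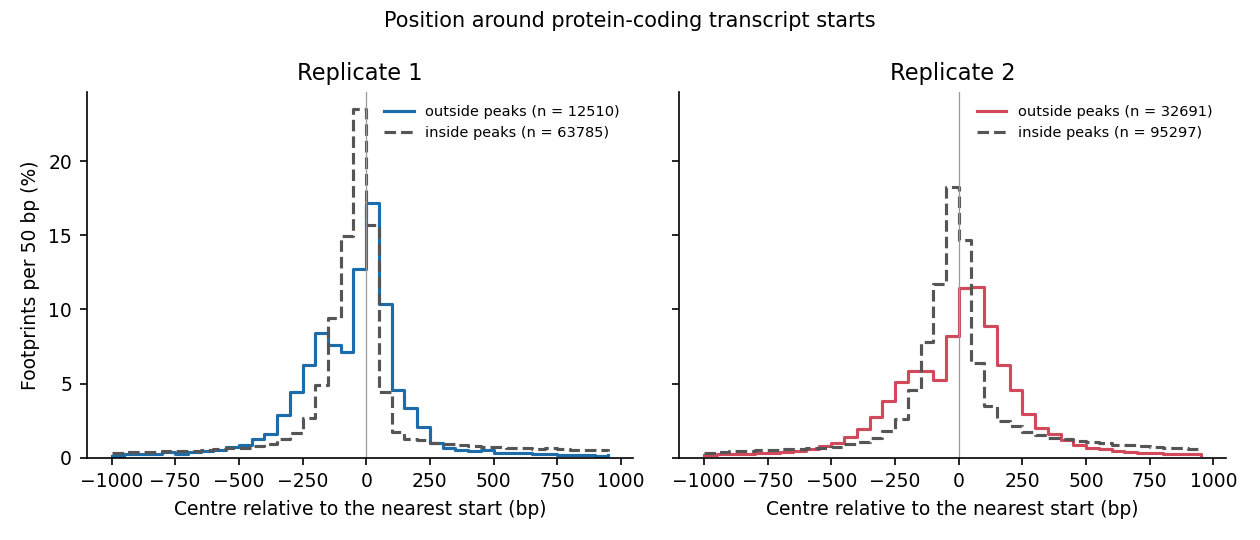
Share of footprints per 50 bp (vertical axis, percent of those centred within 1 kb of a start) by position relative to the nearest protein-coding transcript start (horizontal axis, bp, negative upstream), 1 panel per replicate. Solid lines are footprints outside peaks and dashed lines those inside peaks. The dashed lines peak just upstream of the start and the solid lines just downstream, with a second shoulder upstream.

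Footprints outside peaks were shorter at the wide end. The median width was 9 bp in both replicates against 10 bp inside, and the lists start at 7 bp. Widths of 7 bp made up 35.4% and 35.2% outside and 25.2% and 25.96% inside. Widths over 15 bp made up 13.4% and 12.7% outside and 25.5% and 25.7% inside. The replicates differed by less than a percentage point in these outside shares, while their numbers of footprints differed 2.56 times. The rule counts a footprint that crosses a peak edge as inside, and a wider one is more likely to cross. Those partly inside a peak were 4561 in replicate 1 and 7302 in replicate 2. The part this plays in the difference of widths was not tested.

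The widest footprints outside peaks were single cases close to a peak. In replicate 1 the widest had 78 bp (chr11:106036660-106036737), 135 bp from the start of Dcaf7, and it began 3 bp from a peak with a value of 16.1. All 78 bases lay in a footprint of replicate 2, inside a peak with a value of 14.8. The next were near Cib1, Cyth1, Trim7 and Lars2, with 50 to 56 bp. The Lars2 one was exonic and 69 bp from a peak with a value of 87.0. In replicate 2 the widest had 59 bp and was 143 bp from the start of Ilf2. The others were near Tmem196, Rps29, Sec16a and Cstf2, with 52 to 58 bp. The 31-base word at the centre of the Tmem196 footprint occurs 1832 times in the assembly, so a read of that length could not be placed uniquely.

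Bases of footprints outside peaks were GC rich. GC made up 65.3% of them in replicate 1 and 68.4% in replicate 2, against 62.8% and 65.2% inside peaks and 41.7% of the genome. Among promoter footprints alone the outside share (69.0% and 71.6%) was within a percentage point of the inside share (69.2% and 70.8%). In introns it was lower outside, at 50.7% and 55.8% against 54.9% and 58.8%. Repeats held 10.6% and 9.63% of outside bases, 9.50% and 9.85% of inside bases, and 36.4% of the genome, so the order changed between replicates. Among promoter footprints the repeat share was 8.28% and 7.69% outside against 5.64% and 5.99% inside. The 31-base word at the centre occurred more than once in the assembly for 2.72% and 2.56% of outside footprints and 2.26% and 2.77% of inside ones.

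Recurrence in the other replicate was uneven. A footprint of replicate 2 overlapped 58.2% of the outside footprints of replicate 1, and a footprint of replicate 1 overlapped 20.1% of those of replicate 2. The inside shares were 56.7% and 39.1%. A peak of the other replicate covered at least 1 base of 40.3% and 20.5% of outside footprints, against 79.2% and 71.0% inside. The lists have unequal lengths, so these shares are not symmetric. Of the overlapping outside footprints, 3.84% in replicate 1 (374 of 9744) and 4.20% in replicate 2 (362 of 8614) had the same ends. The inside shares were 4.28% and 4.44%.

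Each outside footprint was then placed once by what the other replicate held there. In replicate 1, 27.3% met a footprint inside a peak, 30.9% a footprint outside peaks, 15.2% a peak without a footprint, 18.1% only an FDR stretch, and 8.47% none of these. In replicate 2 the shares were 8.26%, 11.8%, 12.6%, 53.8% and 13.5%. Thus the largest class of replicate 2 was chromatin that was also listed in the FDR file of replicate 1 but had neither a peak nor a footprint there.

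Wide footprints recurred more often than narrow ones. At 7 bp, 43.3% of outside footprints of replicate 1 and 8.49% of those of replicate 2 overlapped a footprint of the other replicate. The inside shares at that width were 34.4% and 16.03%. Above 15 bp the outside shares were 94.4% and 60.7%, and the inside shares 92.3% and 80.6%. A wider interval also has more bases that can meet another, and the part this plays was not tested. The gap to the peak made little difference in replicate 1, with 58.5% at gaps below 50 bp and 61.3% at 150 bp or more. In replicate 2 the share was 25.4% below 50 bp and 10.6% at 150 bp or more. Promoter footprints recurred at 65.6% and 21.4%, and intronic ones at 29.2% and 13.9%. Inside peaks the same order held, with 69.2% and 45.9% at promoters and 40.4% and 31.1% in introns.

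**Figure D4:**
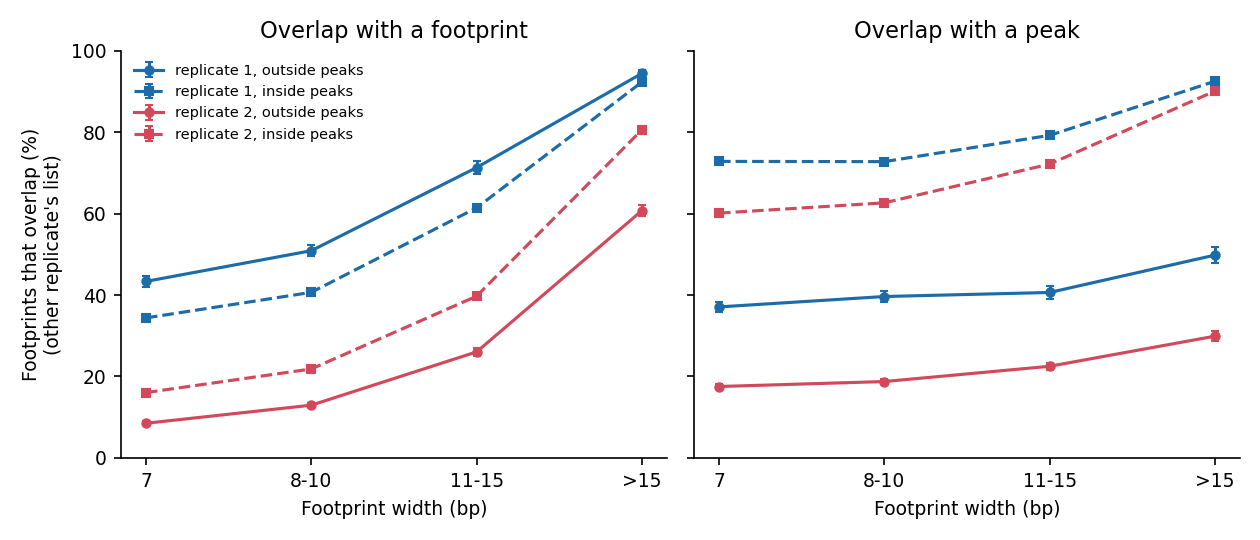
Share of footprints that overlap a footprint (left panel) or a peak (right panel) of the other replicate (vertical axis, percent) by width (horizontal axis, bp), outside peaks (solid lines) and inside peaks (dashed lines). Error bars are 95% Wilson intervals of counting error. Above 15 bp the outside footprints reach 94.4% in replicate 1 and 60.7% in replicate 2 for overlap with a footprint.

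Some outside footprints of one replicate overlapped a high peak of the other. Among the peaks of replicate 1 that outside footprints of replicate 2 overlapped, the highest were at Nup107, which encodes a nuclear pore protein (3 footprints, peak value 29.8), Odf2 (29.7), Tle4 (27.1) and Faim (26.1). The others of the top 10 were near Nacc2, Hexim1 and Clic4. The nearest peak of replicate 2 at Nup107 was 18 to 53 bp away and had a value of 24.2. For outside footprints of replicate 1 the highest peak overlapped was 2408 bp from the start of Zc3h7a, in an intron, with a value of 51.6 in replicate 2 and a peak of 63.0 in replicate 1 that ended 14 bp away. Among the others were footprints near Napepld, 4930467E23Rik, Ankrd16, Ing2 and Pop7. Of the 4 near 4930467E23Rik, 3 had a central 31-base word that occurs 2 to 6 times in the assembly.

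Motifs were searched on both strands in windows of 41 bp centred on each footprint, and the share of all such windows of the genome is given beside each. The GATA motif (AGATAA, or else TGATAA, or else AGATAG, or else TGATAG) was in 4.06% of windows outside peaks in replicate 1 and 2.497% in replicate 2. It was in 8.4% and 3.80% inside peaks and in 8.66% of genome windows. Near starts the outside shares were 1.90% and 1.57%, and farther than 1 kb from starts 10.4% and 5.48%. The inside shares farther from starts were 13.4% and 5.82%.

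The GC box (GGGGCGGGG or GGGCGGGGC) was in 4.26% and 3.13% of windows outside peaks, 4.34% and 3.83% inside, and 0.0713% of genome windows. Of the outside footprints with a GC box, 89.9% in replicate 1 and 43.6% in replicate 2 overlapped a footprint of the other replicate, against 90.95% and 71.9% inside peaks. Among promoter footprints the GC box shares were 5.19% and 3.63% outside and 7.68% and 6.17% inside. Farther from starts they were 1.49% and 1.53% outside and 1.30% and 1.42% inside. The NRF1 motif (CGCATGCG), bound by a regulator of mitochondrial genes, was in 0.496% and 0.217% outside, 0.558% and 0.447% inside, and 0.00672% of genome windows. Outside footprints with it recurred at 95.2% (79 of 83) and 71.0% (66 of 93), against 92.3% and 82.3% inside. Among promoter footprints the NRF1 shares were 0.575% and 0.248% outside and 1.02% and 0.736% inside, and farther from starts the order changed between replicates. The NFY motif (CCAATCA, or else CCAATGA, or else CCAATCG, or else CCAATGG) was in 1.79% and 1.17% outside, 3.07% and 2.39% inside, and 1.57% of genome windows. Among promoter footprints the NFY shares were 1.89% and 1.17% outside and 4.77% and 3.38% inside.

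The CTCF consensus was in 27 windows outside peaks in replicate 1 (0.161%, 95% Wilson interval 0.111 to 0.235) and in 74 in replicate 2 (0.172%, interval 0.137 to 0.216). Inside peaks it was in 3.24% and 2.51%, and in 0.0149% of genome windows. The gap between outside and inside was there away from starts too, with 0.402% and 0.499% outside against 5.56% and 4.61% inside. It was also there among footprints wider than 10 bp, with 0.266% and 0.390% against 5.52% and 4.91%.

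Runs of A (AAAAAAAA, or T on the other strand) went the other way. They were in 1.43% and 0.811% of windows outside peaks, 0.430% and 0.356% inside, and 1.73% of genome windows. The outside share was higher near starts (1.17% and 0.716% against 0.370% and 0.265%) and away from them (2.20% and 1.12% against 0.484% and 0.450%). Outside footprints with a run recurred at 65.3% in replicate 1 and 41.7% in replicate 2.

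Among the other motifs, the 6 given here had lower pooled shares outside than inside peaks in both replicates. The CACCC box, CEBP, CA repeat and HNF4 motifs were lower outside in both too, and their values follow further on. The E-box of TAL1 (CAGATG) was in 1.57% and 1.71% of windows outside, 2.81% and 2.49% inside, and 2.96% of genome windows. The NFE2 and AP-1 motif (TGACTCA or TGAGTCA) was in 0.472% and 0.398% outside, 1.12% and 0.675% inside, and 0.571% of genome windows. The CRE (TGACGTCA), bound by CREB and ATF factors, was in 0.227% and 0.135% outside, 0.465% and 0.330% inside, and 0.0186% of genome windows. The ETS motif (CCGGAAGT or AGGAAGTG) was in 0.896% and 0.641% outside, 1.36% and 0.969% inside, and 0.299% of genome windows. The E-box of USF and MYC (CACGTG) was in 0.884% and 0.862% outside, 1.29% and 1.13% inside, and 0.361% of genome windows. The RUNX motif (TGTGGTT) was in 0.621% and 0.415% outside, 0.953% and 0.591% inside, and 0.859% of genome windows.

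Promoter footprints make up more of the outside set, so these shares were also split at 1 kb from a start. For the CRE the difference was at promoters, with 0.232% and 0.144% outside against 0.772% and 0.535% inside. Farther from starts it was in 0.213% and 0.108% outside and 0.186% and 0.120% inside. The ETS motif was in 0.903% and 0.670% of promoter windows outside and 1.92% and 1.34% inside. Farther from starts it was in 0.875% and 0.548% outside and 0.860% and 0.590% inside. The E-box of USF and MYC was in 0.903% and 0.819% of promoter windows outside and 1.62% and 1.34% inside, and farther from starts the order of outside and inside changed between replicates. For RUNX the shares lay close within both classes, at promoters 0.392% and 0.318% outside and 0.426% and 0.329% inside. Farther from starts RUNX was in 1.30% and 0.724% outside and 1.43% and 0.860% inside. The E-box of TAL1 was in 1.21% and 1.22% of promoter windows outside and 1.38% and 1.42% inside, and farther from starts in 2.65% and 3.30% outside and 4.11% and 3.59% inside. The NFE2 and AP-1 motif was lower outside in both classes, with 0.248% and 0.272% against 0.412% and 0.318% at promoters, and 1.14% and 0.802% against 1.75% and 1.04% farther away.

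For others the outside and inside shares were close or changed order between replicates. The CACCC box of KLF and SP factors (CCACACCC, CCCCACCC or CCGCACCC) was in 2.55% and 2.67% outside, 2.92% and 2.69% inside, and 0.614% of genome windows. The YY1 motif (AAGATGGC) was in 0.717% and 0.419% outside, 0.554% and 0.487% inside, and 0.316% of genome windows. The TEAD motif (GGAATG) was in 1.57% and 1.47% outside, 1.35% and 1.58% inside, and 2.11% of genome windows. The CEBP motif (TTGCNNAA) was in 0.914% and 0.820% outside, 1.12% and 0.877% inside, and 1.72% of genome windows. The FOX motif (TGTTTAC) was in 0.406% and 0.249% outside, 0.299% and 0.257% inside, and 0.551% of genome windows. The CA repeat (CACACACA) was in 0.538% and 0.606% outside, 0.575% and 0.663% inside, and 1.59% of genome windows. The hepatocyte motifs were rare. HNF4 (CAAAGTCCA or CAAAGGTCA) was in 10 and 26 windows outside peaks (0.0597% and 0.0606%), and HNF1 (GTTAATNAT) in 5 and 12. The mean HNF1 share of the 2 replicates was 0.0289% outside and 0.0232% inside, with few windows outside. By replicate, the shares inside peaks were 0.0685% and 0.0803% for HNF4, and 0.0208% and 0.0255% for HNF1. The genome shares were 0.0898% for HNF4 and 0.124% for HNF1. Genome windows have less GC than footprints, and the part base composition plays in these shares was not tested.

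At least 1 of the 20 motifs was in 21.7% and 17.1% of windows outside peaks and in 31.5% and 23.9% inside. Motifs can overlap one another, and a match is a description of letters, not a bound site.

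**Figure D5:**
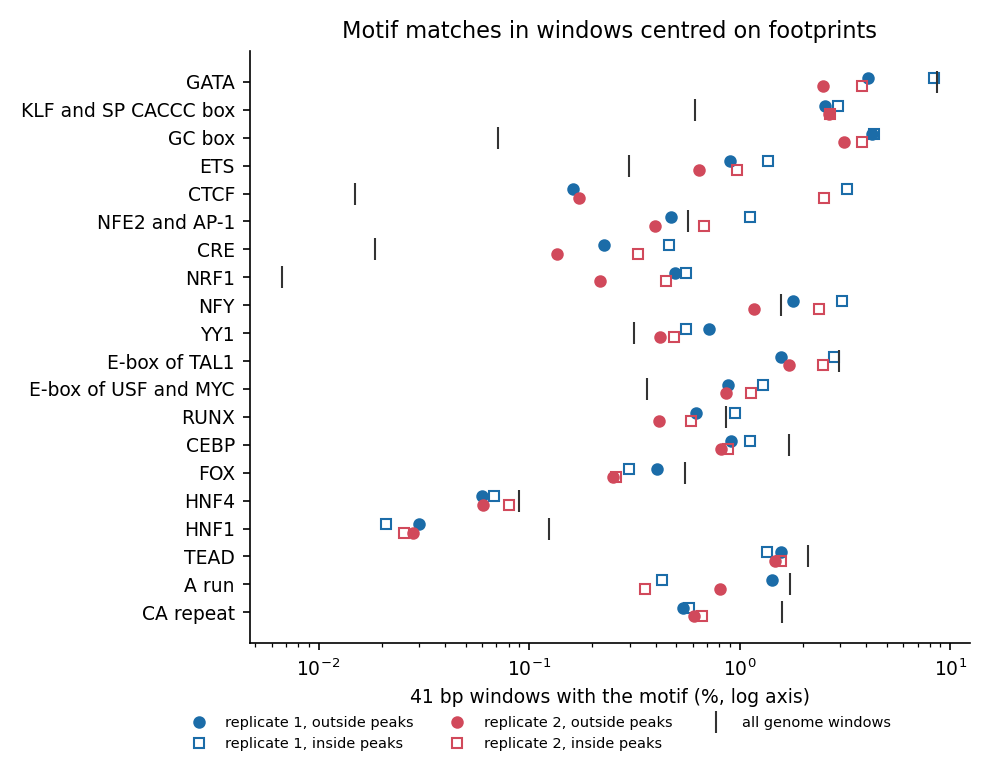
Share of 41 bp windows with each of the 20 motifs (horizontal axis, percent, log scale). Filled circles are footprints outside peaks, open squares footprints inside peaks, both by replicate, and vertical ticks all genome windows. CTCF stands apart with 0.161% and 0.172% outside against 3.24% and 2.51% inside, and the run of A lies the other way.

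Footprints outside peaks came in groups. Those of 1 replicate were chained where the gap to the next was at most 1 kb, and a chain of at least 3 was taken as a cluster. Replicate 1 had 1973 clusters with 8058 footprints (48.1%), and replicate 2 had 6184 with 31166 (72.6%). The median span was 356 bp and 489 bp. The footprint closest to a start lay within 1 kb of it in 86.4% and 84.4% of clusters. Footprints inside peaks were not chained, so they give no comparison here. Of the clusters, 69.2% in replicate 1 overlapped a cluster of replicate 2, and 22.1% in replicate 2 overlapped one of replicate 1. Alone, with no other within 1 kb, stood 29.2% and 13.7% of the footprints. Replicate 2 had more footprints to chain, and the part this plays in its larger share was not tested.

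The clusters with the most footprints sat close to transcript starts. In replicate 1 the top 2 had 15 each. One was 4 bp from the start of Sp4, which encodes an SP-family factor that binds GC boxes (chr12:118301139-118302446), and replicate 2 had 12 outside footprints in the same interval. The second was at the start of Atxn2l, where replicate 2 had 5. Mknk2 followed with 13, and 0610010K14Rik, Myh9 and Pard6b with 12 each. The last 4 were Baiap2l1, Tcf19, Srd5a1 and Prrc2a, with 11 each. At Pard6b, a cell polarity gene, replicate 2 also had 12. At Prrc2a it had 0 outside footprints and 13 inside a peak.

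In replicate 2 the largest cluster had 24 footprints over 3866 bp at Foxo3, which encodes a transcription factor that takes part in red cell maturation (chr10:42274412-42278277). The interval also held 5 peaks and 23 footprints inside them. Replicate 1 had 1 outside footprint and 18 inside peaks in the same interval. Hras followed with 22, then Fzd7 and Grk6 with 19 each. Efcab2, Cdc5l, Gpbp1, Stt3b and Ing2 had 18 each, and Dyrk1a 17. Replicate 1 had between 1 and 10 outside footprints in each of these 10 intervals, and the most was at Ing2.

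Genes of the tissue's lineages were then counted by whether they had a footprint outside peaks within 1 kb of a start. Of all 21911 protein-coding gene names, 29.5% had one in replicate 1, 45.9% in replicate 2 and 27.2% in both. A footprint inside a peak lay there for 55.7% of the names in replicate 1 and 63.8% in replicate 2. The tissue label was checked by promoter peaks. Gata1, Klf1, Tal1, Epor and Alad of the red cell lineage had promoter peaks in both replicates, as did Afp and Foxa3 of hepatoblasts. Alb had one in replicate 1 alone and Hnf4a in replicate 2 alone, with values of 0.367 and 0.404.

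Of 20 erythroid transcription factor genes, 13 had an outside footprint in replicate 1, 18 in replicate 2 and 12 in both, and all 20 had an inside footprint in each. The 12 were Bach1, Ikzf1, Klf3, Lmo2, Lyl1, Mafk, Myb, Nfe2, Stat5b, Tal1, Zbtb7a and Zfpm1. Their numbers did not run in parallel in the replicates. Klf3, a repressor of the KLF family, had 12 in replicate 1 and 2 in replicate 2. Lmo2, the bridging protein of the TAL1 complex, had 3 and 14, and Nfe2 had 3 and 10. Zfpm1, the partner of GATA1, had 3 and 9, with nearest peaks up to 22.5 and 20.3. Lyl1 had 5 and 2.

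All 20 genes for red cell membrane proteins and receptors had an inside footprint in each replicate. An outside footprint was there for 8 in replicate 1, 14 in replicate 2 and 7 in both. Those were Dmtn, Epb41, Epor, Ermap, Gypc, Slc4a1 and Sptb. Epor, the erythropoietin receptor gene, had 4 and 6, at gaps of 19 to 55 bp in replicate 1 and 6 to 125 bp in replicate 2. Slc4a1 had 4 and 14. Of 18 genes of heme and iron handling, 11 had one in replicate 1, 14 in replicate 2 and 11 in both. Among them were Alad, Blvrb, Cpox, Fth1, Ftl1, Ppox, Slc11a2, Slc25a38, Urod and Uros. Ftl1, the ferritin light chain gene, had 1 and 15. Ppox, of the heme pathway, had 5 and 9, and of these 4 in each replicate overlapped a footprint of the other. None of the 9 globin genes had one in replicate 1, and 4 had in replicate 2.

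Apart from the globin list, the red cell lists had a higher share of genes with an outside footprint than lists of other cell types. Their shares were also above those of all gene names in each replicate. The globin share in replicate 2 was 44.4%, against 45.9% of all gene names. Housekeeping genes had higher shares than every red cell list, at 84.2% and 94.7%. None of 24 hepatoblast genes had an outside footprint in replicate 1 and 6 had in replicate 2, and these genes had inside footprints in 8 and 17 cases. Of 14 endothelial genes 0 and 3 had one, of 15 macrophage genes 1 and 2, and of 11 megakaryocyte genes 2 and 4. The 2 found in both replicates were Itga2b and Nbeal2. All 19 housekeeping genes had an inside footprint in each replicate, and 16 and 18 had an outside one, 16 in both. Among them were Actb, Eef1a1, Eef2, Gapdh, Pgk1, Polr2a, Ppia, Rplp0, Rps18, Sdha, Tbp, Tubb5, Ubb and Ywhaz. Actb had 5 and 9, and Ywhaz 5 and 14. The lists differ in how many of their genes have a promoter peak, and the part this plays was not tested.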

How the data were processed

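DNase-seq of 2 libraries (1 group, 2 biological replicates) was used as deposited. The authors made peaks, a false discovery rate (FDR) of the cut rate and footprints from the filtered mm10 alignment of each library alone, per the deposited notes. Each deposited peak carries a signal value of unstated scale. The deposited FDR is a p-value type quantity, and footprints carry 0.01 in every line, read as the list's threshold. The sources used here name no aligner, caller or version.

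Of 2 peak lists per library, the longer was used (76130 and 73852 peaks), and overlapping peaks were joined for nearest-peak values. Signal values were whole multiples of a step (0.0127 and 0.00604) to within 0.05 of it in 100% of peaks. Overlap needs 1 bp. Coordinates are 1-based on mm10. Starts are of 21938 protein-coding genes of GENCODE M21 on 21 chromosomes. Repeats are the soft-masked bases of GRCm38.p6. Of 150 listed genes, 1 (H19) has no protein-coding entry. Interval and motif code was tested on simulated data (Python 3.11.15, numpy 2.4.6, pandas 2.3.3). No test was made between replicates. The 95% Wilson intervals cover counting error only. Genes were named by rank: the 10 largest clusters, 5 farthest and 5 widest footprints and the 10 over the highest peaks of the other replicate that any overlapped, in each replicate, the widest pairs in common, and listed genes found in both replicates; the pairs by motif and by red cell gene were chosen after values were seen. Some genes that met these rules are not reported here. The footprints and lists were chosen with earlier results of these data known.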

Additional observations from a re-analysis of the deposited data

How the results depend on the processing

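Besides leaving out a replicate, 41 alternatives to the 10 main values (means of the 2 replicates) were run, and 24 left the value within the SD between replicates, autosomes alone among them for all 10. That SD was wide for some values, so a large shift could still lie within it. It was 26.97 percentage points for the share overlapping a footprint of the other replicate. With the shorter peak list this share was 27.34% in place of 39.13%. It fell from 58.2% to 38.95% in replicate 1 and from 20.07% to 15.73% in replicate 2. The SD of the clustered share was 17.3 percentage points. Footprints at least 50 bp from every peak gave a clustered share of 50.59% in place of 60.36%. Leaving out either replicate gives the other's value, printed in the report, and with 2 replicates it cannot move the mean by more than the SD, so it says nothing about stability. With the shorter peak list the share outside peaks was 28.3% in place of 14.8%, the median width 8 bp in place of 9, the median gap 129.5 bp in place of 40.5, the promoter share 51.5% in place of 75.5%, the share over FDR stretches 98.9% in place of 99.5%, and the repeat share 13.2% in place of 10.1%. With footprints at least 50 bp from every peak these were 6.62% outside, 8 bp, 103 bp, 81.1% at promoters and 8.52% in repeats. The promoter share was 65.9% with gene 5′ ends alone and 79.9% within 2.5 kb. The clustered share was 39.2% with a chain gap of 200 bp and 78.6% with at least 2 footprints, in place of 60.4%. FDR stretches covered every base of 98.5%. Motifs were found in 10.4% of footprints extended by 5 bp, in place of 19.4% of 41 bp windows. The cause of these shifts was not tested, except that a shorter list leaves more footprints outside it by construction.

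No paired analysis was possible because the libraries form 1 group without a contrast. The library totals are unknown, and a footprint missing from a list is not shown to be absent from the tissue. With 2 libraries from 1 donor label, SDs measure only the spread between these samples. Reads matching several places, and any YAC sequence that matches mouse DNA, could not be separated.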
